A study of Homo sapiens with 27 samples.

Results

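The experiment described here was the knockdown of the long noncoding RNA lnc-ASTN1-1 with the first of its 2 LNA GapmeRs, called GapmeR1. Its members were the 3 samples labelled with that GapmeR, out of 27 samples in the series. They were set against 5 control samples, made up of 2 given medium alone and 3 given a non-targeting LNA GapmeR (NTC). All were cells of REH, a long-used leukemia cell line of B-cell precursor type that carries the ETV6/RUNX1 fusion gene, and all were harvested at 72 hours. GapmeRs were added at 10 µM and taken up by the cells without a transfection reagent. The 2 samples given the second GapmeR against the same RNA (GapmeR2, replicates 1 and 3) were used to see whether a change was found there too. A further 17 samples had received GapmeRs against 3 other lncRNAs. Everything below concerns a single cell line and a single dose and time.

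A GapmeR is a short antisense oligonucleotide whose ends are locked nucleic acid and whose middle is DNA. Where it pairs with an RNA, the enzyme RNase H1 recognises the DNA and RNA hybrid and cuts the RNA. RNase H1 acts in the nucleus as well as the cytoplasm, so introns of unspliced transcripts can pair with a GapmeR too. lnc-ASTN1-1 is one of 4 lncRNAs that the study followed because their expression depended on the fusion gene.

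The sequences of both GapmeRs and of the RNA they pair with are shown first, because later results refer to them. The GapmeRs are written 5′ to 3′, followed by the complementary RNA as DNA letters. Capitals mark the bases that belong to the next exon in the spliced site, and bases that do not pair with the GapmeR in the unspliced site.
GapmeR1: taatctgccaggagtg
lnc-ASTN1-1 spliced, GapmeR1 site: cactcctggcagATTA
lnc-ASTN1-1 unspliced, GapmeR1 site: cactcctggcagGtGa
GapmeR2: gtctgaagtaatgga
lnc-ASTN1-1, GapmeR2 site: tccattacttcagac

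lnc-ASTN1-1 (ENSG00000227579) is annotated in hg38 on chromosome 1 from 177392667 to 177920152 on the minus strand, as a lncRNA gene with 14 exon blocks. GapmeR1 paired over all of its 16 bases only across an exon-exon junction. Of these bases, 12 lay at the end of the exon at chr1:177576711-177576950, and 4 in the next exon. This junction is present in 8 of the 12 annotated transcripts. In the unspliced RNA, at chr1:177576707-177576722, 2 bases did not pair. GapmeR2, of 15 bases, paired without a mismatch inside the same exon at chr1:177576910-177576924. No place in the genome paired with GapmeR1 over its full length, whereas 5 did so with GapmeR2.

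lnc-ASTN1-1 itself was lower in all 3 samples given GapmeR1. Its level, in counts scaled by library size (CPM), was 10.7, 9.75 and 10.3 CPM in replicates 1, 2 and 3. In the controls it was 26.99 and 24.8 CPM with medium and 26.6, 24.9 and 23.3 CPM with NTC. The groups did not overlap. Counts per sample were 141 to 200 with GapmeR1, so a change of this size was well within what the depth could show.

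Upon GapmeR1 treatment 40.4% of the control level remained, with a mean of 10.2 ± 0.457 CPM (SD, n = 3), whereas the controls had 25.3 ± 1.499 CPM (SD, n = 5). This was a log2 fold change of -1.29 with a standard error of 0.0775 (edgeR quasi-likelihood test, Benjamini-Hochberg adjusted p-value 5.72e-13). An exact two-sided permutation test of mean log2 CPM that ignores the replicate numbers gave p = 0.0357, the smallest value that the 56 possible arrangements allow. GapmeR2 left 14.6 and 11.9 CPM in its replicates 1 and 3, and thus fell by 0.92 on the log2 scale (edgeR adjusted p-value 2.07e-07). The level with GapmeR1 was below that with GapmeR2 in both replicates they share, but the direct difference of -0.35 was not significant (edgeR adjusted p-value 0.0866). Across the 17 samples given other GapmeRs lnc-ASTN1-1 ranged from 14.97 to 27.1 CPM with a median of 21.9 CPM. Its mean was 16.8 CPM with lnc-RTN4R-1 GapmeR1, 16.1 CPM with lnc-RTN4R-1 GapmeR2 and 18.1 CPM with lnc-NKX2-3-1 GapmeR1. All samples of these groups lay below every control. With the remaining GapmeRs the means were 24.1 to 24.5 CPM. A lower level was thus not confined to the GapmeRs against this RNA, and why was not tested.

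**Figure D1:**
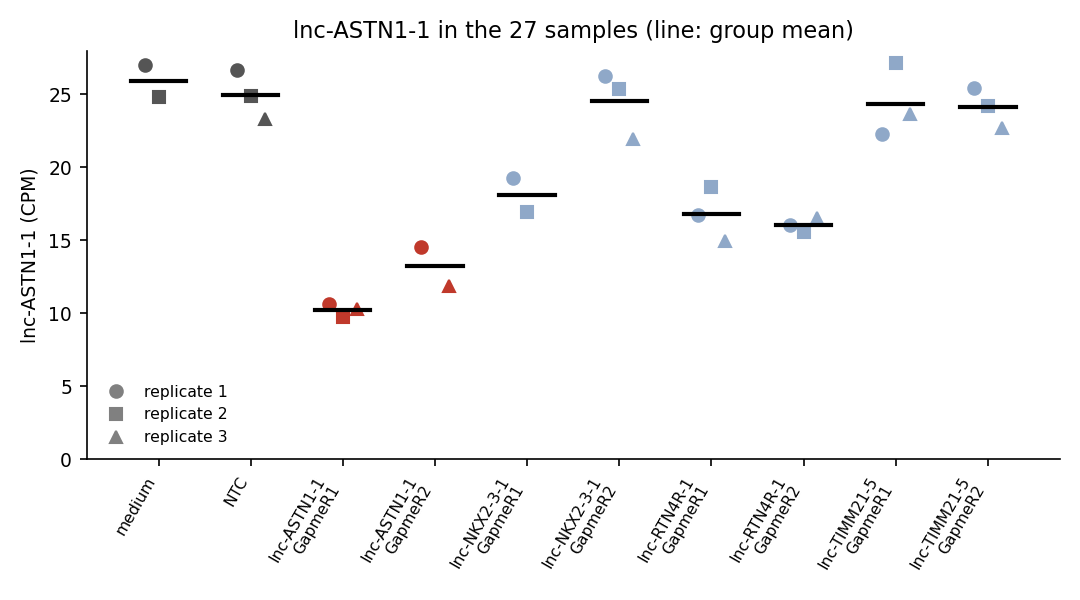
Level of lnc-ASTN1-1 in CPM (vertical axis) in each of the 27 samples, by group (horizontal axis). Points are samples with a symbol for the replicate number, lines are group means, and red marks the GapmeRs against this RNA. The 3 GapmeR1 samples sit between 9.75 and 10.7 CPM, below every other sample.

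Of the tested genes within 1 Mb of lnc-ASTN1-1, 1 of 5 was called changed, where 4.86% of all genes tested were. BRINP2, a gene of the BMP and retinoic acid inducible family on the opposite strand, was at 5.16, 5.05 and 4.48 CPM with GapmeR1 and at 6.22 to 7.79 CPM in the controls. The groups did not overlap, and the log2 fold change was -0.46 (edgeR adjusted p-value 0.0215). This call was lost without the replicate block (adjusted p-value 0.174) and with DESeq2 (0.150). BRINP2 was at 1.48 CPM with lnc-NKX2-3-1 GapmeR1 and at 4.66 CPM with lnc-RTN4R-1 GapmeR2. The log2 fold change was 0.11 for RASAL2, -0.07 for RALGPS2, -0.09 for C1orf220 and -0.60 for RALGPS2-AS1, none of them called.

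Genome-wide, more genes fell than rose upon GapmeR1 treatment. Of 15034 genes tested with the replicate number as a block, 731 were called changed (4.86% of those tested). Of these, 506 were lower (3.37%) and 225 were higher (1.50%). Most changes were small. Among the lower genes 377 changed by less than 0.5 on the log2 scale and 35 by 1 or more, and among the higher genes 195 and 3. The median log2 fold change over all genes tested was 0.0043.

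These counts depend on the block and on single libraries. Without the replicate block 108 genes were called, 102 lower and 6 higher. Leaving out GapmeR1 replicate 1 gave 403 genes, leaving out GapmeR1 replicate 3 gave 353, and leaving out NTC replicate 3 gave 352. The only samples of replicate 3 in this comparison are those of GapmeR1 and NTC, so leaving out either drops the pair. The last counts are thus not separate checks. Lower genes outnumbered higher genes in every one of these fits. All samples of a group came from the same line, so the p-values measure the spread between separate treatments of it.

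**Figure D2:**
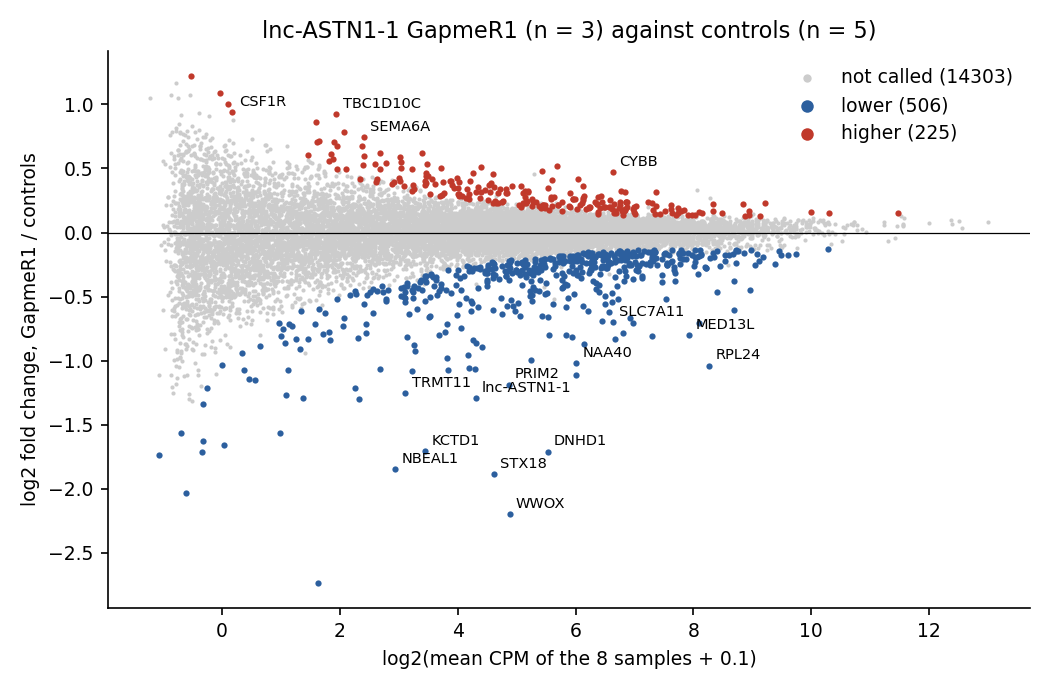
Log2 fold change of GapmeR1 against controls (vertical axis) and log2 of the mean CPM over the 8 samples plus 0.1 (horizontal axis) for the 15034 genes tested. Blue points are the 506 lower genes, red the 225 higher ones and grey the rest. The lower genes reach down to -2.73 and the higher genes up to 1.22.

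The gene with the smallest adjusted p-value was WWOX, a tumour suppressor gene spanning a common fragile site (chromosome 16, 78099400 to 79212667). It was at 11.01, 7.82 and 8.03 CPM with GapmeR1, and at 38.1 to 47.1 CPM in the controls. All 3 samples lay far below every control, and 21.4% of the control level remained. WWOX fell by 2.19 on the log2 scale, with a standard error of 0.0813 (edgeR adjusted p-value 2.12e-17).

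STX18, which codes for a SNARE protein of the endoplasmic reticulum, was at 8.83, 8.92 and 9.22 CPM against 31.0 to 35.3 CPM. STX18 fell by 1.89 (edgeR adjusted p-value 1.15e-16). RPL24, a protein of the large ribosomal subunit, was at 196, 177 and 175 CPM against 335 to 421 CPM. The groups stood apart in each case, and RPL24 fell by 1.04 on the log2 scale (edgeR adjusted p-value 5.44e-17). Many pseudogenes resemble ribosomal protein genes and STAR counts unique alignments only, so the RPL24 level is uncertain.

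NAA40, an N-terminal acetyltransferase acting on histones, fell by 1.02 on the log2 scale, and was at 39.3 ± 0.607 CPM (SD, n = 3) where the controls had 79.6 ± 2.22 CPM (SD, n = 5). MED13L, a subunit of the Mediator kinase module, fell by 0.80 (edgeR adjusted p-value 2.11e-14). USP48, a deubiquitinating enzyme, was at 103, 106 and 114 CPM against 176 to 199 CPM. All 5 of the genes STX18, RPL24, NAA40, MED13L and USP48 were also called without the block and with DESeq2.

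The other lowest genes were ENSG00000261770, NBEAL1, KCTD1, DNHD1, LINC02367, AGAP9, CCDC144A, ENSG00000254951 and TRMT11. ENSG00000261770 had the largest fold change, at 0.516, 0.899 and 0.566 CPM against 3.90 to 5.91 CPM (log2 fold change -2.73). It lies inside LINC00662 on the same strand, and LINC00662 was lower too (-0.86), so these overlapping genes are uncertain. KCTD1, a transcriptional repressor, was at 4.01, 4.29 and 5.46 CPM against 12.5 to 16.5 CPM. TRMT11, part of a tRNA methyltransferase, was at 5.04, 4.01 and 4.63 CPM against 9.80 to 11.9 CPM. AGAP9 and CCDC144A belong to families with near-identical copies, and their values are uncertain. The calls of LINC02367, CCDC144A and ENSG00000254951 were lost without the block (adjusted p-values 0.0552, 0.115 and 0.118).

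GapmeR2 did not show these changes. WWOX was at 37.98 and 35.5 CPM with GapmeR2 and STX18 at 34.2 and 33.7 CPM, levels near the controls. Of the genes named in the last 3 paragraphs, none was called with GapmeR2. The direct test between the GapmeRs called 262 of 15528 genes (1.69%), 213 of them lower with GapmeR1 and 49 higher. The smallest adjusted p-values of that test belonged to WWOX (3.65e-15), STX18 (2.36e-15), RPL24 (1.19e-15), USP48 (3.13e-12) and NAA40 (6.64e-12). Without the replicate block it called 53 genes. Leaving out GapmeR1 replicate 2 or 3 gave 417 and 139 genes, and leaving out GapmeR2 replicate 1 or 3 gave 141 and 113.

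**Figure D3:**
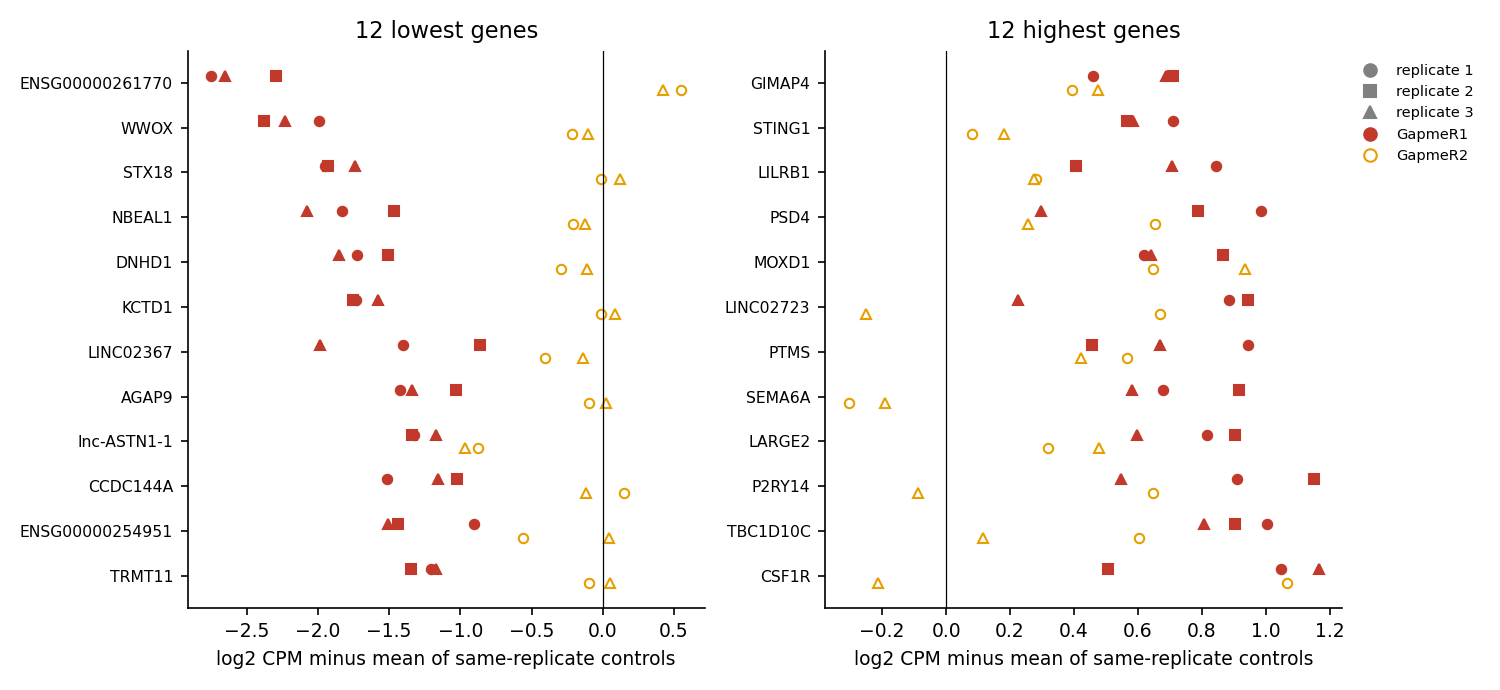
For the 12 lowest and the 12 highest genes by log2 fold change, the log2 CPM of each GapmeR sample minus the mean of the controls with the same replicate number (horizontal axis). Filled red points are GapmeR1 (3 replicates) and open orange points GapmeR2 (2 replicates). All filled points lie on the side of their group, as the choice of these genes required.

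Alone against the same controls, GapmeR2 changed 33 of 15346 genes (0.215%), 29 lower and 4 higher, and 2 without the block. It changed 6 and 15 without GapmeR2 replicate 1 or 3, 19, 58 and 12 without NTC replicate 1, 2 or 3, and 58 without medium replicate 2. Of the 506 genes lower with GapmeR1, 20 were also called lower with GapmeR2, and of the 225 higher genes 2 were also called higher. The comparisons share their controls, so a gene whose controls happen to be high or low moves in both. SMYD3, a histone methyltransferase, was lower with both GapmeRs, at -0.37 on the log2 scale with GapmeR1 and -0.97 with GapmeR2. When GapmeR1 was set against the GapmeRs of the other lncRNAs, SMYD3 had 0.15 and was not called (edgeR adjusted p-value 0.98). CHL1, a cell adhesion molecule, had -0.98 and -0.87, and SHANK3, a scaffold protein of synapses, -0.38 and -0.49. Conversely IFNGR1, the interferon gamma receptor, fell with GapmeR2 (-0.54) and had 0.16 with GapmeR1, where it was not called. SMYD3, CHL1, SHANK3 and IFNGR1 were picked after their values were seen.

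Fewer genes were called between GapmeR1 and cells given GapmeRs against the other lncRNAs. In that comparison, which has no reference sample in common with the one against medium and NTC, 113 of 15888 genes were called (0.711%), 110 lower and 3 higher. The 3 higher genes were NFATC4, CTSB and TMEM273. The 17 reference samples had received unlike GapmeRs but were fitted as 1 group. Differences between those GapmeRs add to the spread and make a given change harder to call. This holds for every comparison below that has them in its reference, and how far it lowered the counts was not tested. STX18 (-1.84), NBEAL1 (-1.80), RPL24 (-1.06), NAA40 (-0.96), USP48 (-0.78) and MED13L (-0.75) were lower there as well. WWOX (-1.36, edgeR adjusted p-value 0.628) and DNHD1 (-1.46, 0.257) were not called. WWOX was also low with other GapmeRs, at 9.40 ± 0.223 CPM (SD, n = 3) with lnc-RTN4R-1 GapmeR1, 9.80 ± 0.849 CPM (SD, n = 3) with lnc-RTN4R-1 GapmeR2 and 12.5 ± 2.73 CPM (SD, n = 2) with lnc-NKX2-3-1 GapmeR1. DNHD1 was at 27.3 CPM with lnc-NKX2-3-1 GapmeR1 and 22.8 CPM with lnc-RTN4R-1 GapmeR2, beside 19.9 CPM with lnc-ASTN1-1 GapmeR1. LINC02367 was at 1.07 CPM with lnc-NKX2-3-1 GapmeR1, beside 0.882 CPM with lnc-ASTN1-1 GapmeR1. Leaving out GapmeR1 replicate 1, 2 or 3 lowered the count of 113 to 66, 67 and 68.

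Several of the lowest genes hold a stretch that pairs with most of GapmeR1. The sites below are written 5′ to 3′ on the sense strand of each gene, with capitals for bases that do not pair with GapmeR1. Those of WWOX, STX18, NBEAL1, KCTD1 and TRMT11 are shown because the genes were among the lowest, that of PRIM2 as a further lower gene with a run of 14, and that of SREBF2 because the gene returns below.
WWOX, intron, chr16:78580482-78580497, plus strand: GactcctggcagatGC
STX18, intron, chr4:4530120-4530135, minus strand: AactcctggcagatGa
NBEAL1, exon, chr2:203166227-203166242, plus strand: AaTtcctggcagatta
KCTD1, intron, chr18:26628016-26628031, minus strand: cactcctggcagatCa
TRMT11, intron, chr6:126048793-126048808, plus strand: TactcctggcagattG
PRIM2, intron, chr6:57469247-57469262, plus strand: GCctcctggcagatta
SREBF2, intron, chr22:41849164-41849179, plus strand: caGtcctggcagattT

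WWOX, STX18 and NBEAL1 each hold an unbroken run of 13 paired bases, and KCTD1, TRMT11 and PRIM2 one of 14. Of these, WWOX was also low with the other GapmeRs named above. KCTD1 was at 5.39 CPM with lnc-NKX2-3-1 GapmeR1, close to its level here, and STX18 at 23.4 CPM. The lowest group means with the other lncRNAs' GapmeRs were 9.63 CPM for NBEAL1 and 9.35 CPM for TRMT11. PRIM2, the large subunit of DNA primase, was at 18.1, 16.5 and 11.996 CPM against 27.4 to 42.6 CPM. None of its GapmeR1 samples reached the control range. Other lower genes with a run of 14 were RPP30 (-0.43), COA8 (-0.63), PIK3C2B (-0.48) and SLC38A4-AS1 (-1.66). RPP30 is a subunit of ribonuclease P, COA8 an assembly factor of cytochrome oxidase and PIK3C2B a class II phosphoinositide 3-kinase. ASPH, an aspartyl hydroxylase with 1 mismatch, had -0.58.

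Over all genes with an annotated position, 265 held a sense match with up to 2 mismatches, unspliced or spliced, and 54 of them were lower (20.4%) and 2 higher (0.755%). Of the genes with more mismatches than that, 441 of 14575 were lower (3.03%). Where the run of paired bases reached 13 or more, 34 of 59 genes were lower (57.6%), with a median log2 fold change of -0.29, and 1 was higher, PDGFRB (0.32). Without the block 20 of the 59 were lower, and with NTC plus the other lncRNAs' GapmeRs as reference 19 were. That measure, a run of 13, was chosen after the values were seen, and the count includes lnc-ASTN1-1. EPM2A held a match with 1 mismatch and a run of 14 but was not called (-0.09). SCD5 (-0.18), KLC1 (-0.18) and L3MBTL3 (0.13) also held a run of 14 and were not called. The higher gene PDGFRB held a run of 14 as well. PAX5, a B-lineage transcription factor with a run of 13, was not called either (-0.11). Of the lower genes, 89.1% had more than 2 mismatches, and 17 of these 441 genes, WWOX among them, held a run of 13. RPL24, NAA40, USP48 and DNHD1 held neither kind of match. ENSG00000261770, the gene with the largest fold change, and AGAP9 and CCDC144A held no run of 13.

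The same count was made for matches to GapmeR2, an oligonucleotide these cells did not receive. Of 34 genes with a run of 13 or more bases paired to GapmeR2, 4 were lower in GapmeR1 samples (11.8%), where 3.37% of all genes were. With GapmeR2 samples, 5 of those 34 genes were lower, and of the 59 genes with such a run for GapmeR1, 2 were. The latter were SMYD3 and lnc-ASTN1-1. Over all genes 29 of 15346 were lower with GapmeR2. Among tested genes only lnc-ASTN1-1, IFNGR1 and SEMA6A held a full-length match to GapmeR2. Their log2 fold changes with GapmeR2 were -0.92, -0.54 and -0.26, and SEMA6A was not called. Each of these counts of genes with a run includes lnc-ASTN1-1, the target of both GapmeRs. Match and gene length move together, since the median length was 201 kb for the 59 genes and 26.0 kb for all tested genes. Whether pairing with GapmeR1 lowered any of these genes was not tested.

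Long genes were called lower more often than short ones against medium and NTC. The share of lower genes was 0.991% up to 10 kb, 1.56% from 10 to 30 kb, 3.16% from 30 to 100 kb, 8.18% from 100 to 300 kb and 20.7% over 300 kb. The share of higher genes stayed between 1.18% and 1.72% in all 5 classes. Above 300 kb, 13 of 19 genes with a run of 13 or more were lower, and from 100 to 300 kb 12 of 23 were. Among genes without a match of up to 2 mismatches the share was 18.2% over 300 kb and 0.992% up to 10 kb. These genes include some with a run of 13 and 3 mismatches, such as WWOX. Without the replicate block the shares were 5.23% over 300 kb and 0.121% up to 10 kb. Over 300 kb the share was 9.58% without GapmeR1 replicate 3 and 10.1% without NTC replicate 3, which drop the same pair. It was 2.34% with NTC plus the other lncRNAs' GapmeRs as reference. Against those GapmeRs alone it was 1.71% over 300 kb, with a median log2 fold change of 0.010, and 0.174% up to 10 kb. With GapmeR2, 1.09% of genes over 300 kb were lower and 0.139% of those up to 10 kb.

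Among 24 tested genes of the list of fragile-site and other very long genes, 11 were lower and none was higher. Of all genes 3.37% were lower, and of those over 300 kb, a closer reference for this list, 20.7%. The list's median log2 fold change was -0.21, and that of all genes 0.0043. The list holds WWOX and STX18, which earlier results of these data had already singled out, so their calls here add no support. STX18, at 126605 bases, is not a very long gene. VPS13B, a lipid transfer protein of the Golgi, fell by 0.67 and DMD, the dystrophin gene, fell by 0.51 on the log2 scale. Both were also low with lnc-NKX2-3-1 GapmeR1, VPS13B at 57.4 CPM and DMD at 2.59 CPM, beside 89.01 and 7.34 CPM with lnc-ASTN1-1 GapmeR1. Without the block 6 of the list were lower. Against the GapmeRs of the other lncRNAs 2 were called, and with NTC added to that reference 2 were lower and the list's median was 0.018.

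**Figure D4:**
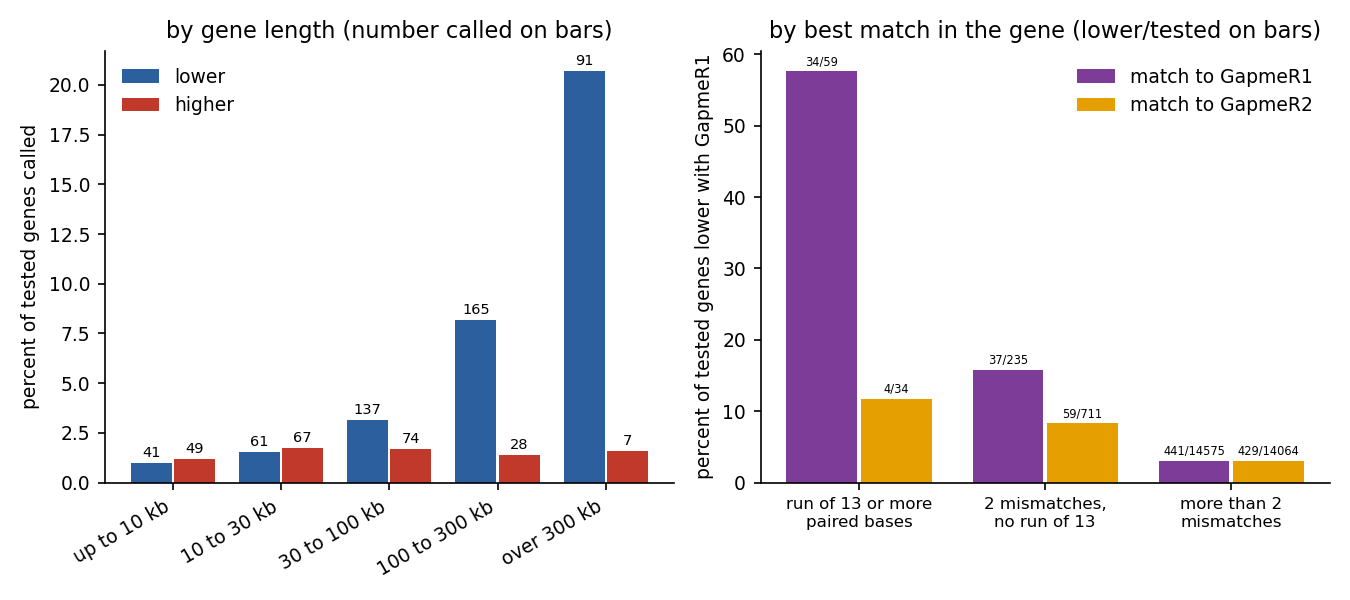
Left, percent of tested genes called lower (blue) or higher (red) with GapmeR1 by gene length, with the number called on each bar. Right, percent of tested genes lower with GapmeR1 by their best match to GapmeR1 (purple) or GapmeR2 (orange), with lower and tested genes on each bar. The share of lower genes rises to 20.7% over 300 kb, and to 57.6% for a run of 13 or more bases paired to GapmeR1.

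Upon GapmeR1 treatment 11 of 19 tested genes of cholesterol synthesis were lower and none was higher. Cholesterol is made from acetyl-CoA through mevalonate and squalene, and the transcription factor SREBP2, the product of SREBF2, switches on the genes of this pathway when sterols are scarce. The median of the list was -0.23 on the log2 scale. Over all genes 3.37% were lower and the median was 0.0043. Without the replicate block only SREBF2 passed the threshold, although the median was -0.26, and with DESeq2 11 were lower. With medium only as controls 5 were.

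SREBF2 was at 340, 340 and 363 CPM with GapmeR1, and at 425 to 476.5 CPM in the controls. The groups did not overlap, and SREBF2 fell by 0.38 with a standard error of 0.0378 (edgeR adjusted p-value 3.17e-08). HMGCS1, the enzyme that makes HMG-CoA, was at 407, 461 and 332 CPM against 486 to 613 CPM (log2 fold change -0.45). MVD, which forms isopentenyl diphosphate, was at 84.2, 92.8 and 80.2 CPM against 102 to 128 CPM (-0.35). All GapmeR1 samples of these genes lay below every control.

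Along the pathway, IDI1 had -0.27, FDPS -0.14, SQLE -0.24, LSS -0.32, MSMO1 -0.32 and DHCR7 -0.26, all called. INSIG1, which retains the SREBP complex in the endoplasmic reticulum, was called at -0.14. None of the 19 was called with GapmeR2. When cells given GapmeRs against other lncRNAs were the reference, 6 were called lower. Levels differed between those GapmeRs. With lnc-NKX2-3-1 GapmeR1 HMGCS1 was at 396 CPM and LSS at 188 CPM, beside means of 400 and 232 CPM with lnc-ASTN1-1 GapmeR1. SREBF2 was not low there (473 CPM). With lnc-TIMM21-5 GapmeR1 and lnc-NKX2-3-1 GapmeR2 HMGCS1 was at 692 and 677 CPM, above its means of 544 CPM with medium and 566 CPM with NTC. The SREBF2 gene holds the site printed above, with 2 mismatches and a run of 12 paired bases, and whether this bears on its level was not tested.

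**Figure D5:**
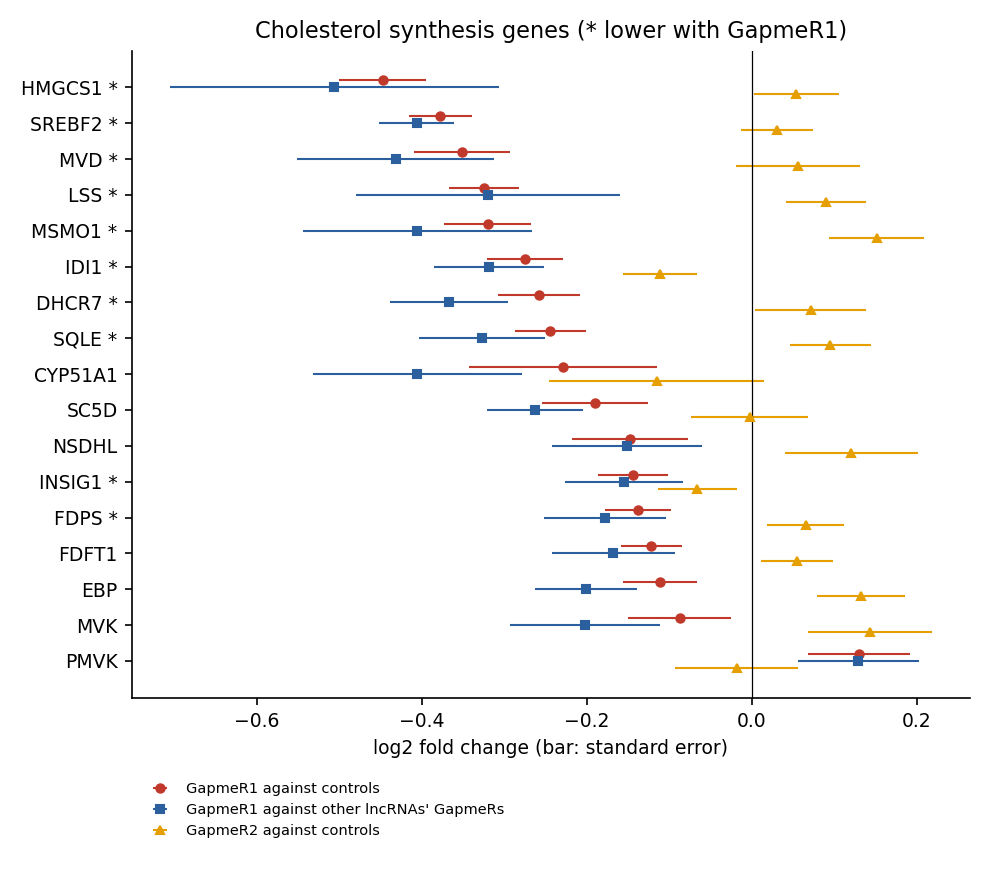
Log2 fold change with its standard error (horizontal axis) for 17 of the 19 tested cholesterol synthesis genes, for GapmeR1 against controls (red), GapmeR1 against GapmeRs of the other lncRNAs (blue) and GapmeR2 against controls (orange). Asterisks mark the 10 of them that were lower with GapmeR1 against controls. The red points of those genes lie between -0.45 and -0.14.

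Among the named genes that rose, CSF1R, the receptor of macrophage colony-stimulating factor, had the largest log2 fold change (0.94). It was at 1.09, 1.45 and 1.96 CPM with GapmeR1 and at 0.339 to 1.04 CPM in the controls. TBC1D10C, an inhibitor of Ras and calcineurin signalling, was at 5.503, 3.87 and 7.11 CPM against 1.92 to 4.01 CPM, so the groups overlapped. Each GapmeR1 sample was above the controls of its own replicate number.

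SEMA6A, a transmembrane semaphorin, was at 5.68, 7.96 and 7.52 CPM against 3.01 to 4.99 CPM (log2 fold change 0.75). STING1, the adaptor of cytosolic DNA sensing, was at 13.1, 10.4 and 17.7 CPM against 5.37 to 11.8 CPM (0.62). The rest of the 12 highest were P2RY14 (0.86), LARGE2 (0.79), PTMS (0.71), LINC02723 (0.71), MOXD1 (0.71), PSD4 (0.68), LILRB1 (0.67) and GIMAP4 (0.62). Of the 12, only GIMAP4 was called without the block (edgeR adjusted p-value 0.0489). PTMS and MOXD1 were not called with DESeq2, which gave no adjusted p-value for CSF1R.

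The smallest adjusted p-values among higher genes belonged to CYBB (4.53e-08), NRXN2, IRAG1, TP53I11 and RASGRP2. CYBB, the catalytic subunit of the phagocyte NADPH oxidase, was at 122, 125 and 110 CPM against 78.4 to 101 CPM (log2 fold change 0.47). With GapmeR2 it was at 114 and 96.2 CPM and was called higher too (0.42, edgeR adjusted p-value 0.000108). Cells given the other lncRNAs' GapmeRs had 84.6 to 194 CPM with a median of 113 CPM. NRXN2, a neurexin, was at 50.3, 50.3 and 58.8 CPM against 34.2 to 45.9 CPM (0.48).

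None of the 12 highest genes nor these 5 was called against the GapmeRs of the other lncRNAs. TBC1D10C was at 16.8 ± 2.43 CPM (SD, n = 2) with lnc-NKX2-3-1 GapmeR1, above its level of 5.49 ± 1.62 CPM (SD, n = 3) here. With NTC and those GapmeRs together as the reference, TBC1D10C, P2RY14 and PSD4 changed sign (-0.41, -0.022 and -0.22) and were not called.

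Of the B-cell gene groups, most members were not called, and their counts stand beside 3.37% of all genes lower and 1.50% higher. Among 20 B-lineage transcription factors MEF2C (0.23) and SPI1 (0.21) rose and IRF4 (-0.20) fell, with a list median of 0.0029. MEF2C was at 652, 729 and 561 CPM against 482 to 653 CPM, so the groups overlapped. Of 18 genes of the pre-B receptor and its signalling, 1 rose and 1 fell, the latter being VPREB3 (-0.17). None of 10 genes of V(D)J recombination and end joining was called, RAG1 being at 0.07 and DNTT at -0.06. Of 19 surface antigens 3 rose, CD52 (0.25) and CD74 (0.15) among them, and CD58 (-0.31) and FLT3 (-0.14) fell. CD58, the ligand of CD2, was the only one of the 2 lower antigens whose groups did not overlap. The 3 higher antigens became 0 without GapmeR1 replicate 1. They also became 0 without GapmeR1 replicate 3 or without NTC replicate 3, which drop the same pair. No gene of these 4 lists was called without the block.

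MHC class II genes, which present peptides to CD4 T cells, were called higher in 5 of 13 cases with no lower gene (list median 0.14), where 1.50% of all genes were higher. HLA-DRB1 (0.17), HLA-DRA (0.16), HLA-DQA1 (0.19), HLA-DQB1 (0.15) and CD74 were those 5. None was called without the block or against the other lncRNAs' GapmeRs. The same held without GapmeR1 replicate 3, without NTC replicate 3 and with medium only as controls. None of these last fits compares samples of replicate 3, so they are not separate checks. With lnc-RTN4R-1 GapmeR2 HLA-DRA was at 1154 CPM and HLA-DRB1 at 582 CPM, beside means of 1094 and 529 CPM with lnc-ASTN1-1 GapmeR1. HLA genes are highly polymorphic and alike in sequence, so their counts are uncertain. Of 21 genes of integrins, cytoskeleton and migration 5 rose, against the same 1.50% of all genes, among them VCL (0.23), CORO1A (0.22), RAC2 (0.20) and EZR (0.14). Without GapmeR1 replicate 1 there were 2, and none was called without the block or against NTC plus the other lncRNAs' GapmeRs.

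SLC7A11, the cystine importer, was the lowest gene of the integrated stress and unfolded protein response list. It was at 72.4, 81.6 and 59.2 CPM against 114 to 118 CPM, and fell by 0.70 on the log2 scale (edgeR adjusted p-value 2.17e-09). It was also called without the block, but not with NTC plus the other lncRNAs' GapmeRs as reference (-0.60, edgeR adjusted p-value 0.0859). SLC7A11 had a mean of 71.0 CPM with lnc-ASTN1-1 GapmeR1, 86.4 CPM with lnc-NKX2-3-1 GapmeR1 and 86.8 CPM with lnc-RTN4R-1 GapmeR2. CHAC1 (0.26), ASNS (0.17) and PHGDH (0.13) rose among the 20 genes, where 1.50% of all genes were higher and 3.37% lower. None of these 3 was called without the block.

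BCL2, the survival protein, was at 286, 321 and 294 CPM against 329 to 363 CPM (-0.19), and HRK, a pro-apoptotic BH3-only gene, had -0.34. They were the only called genes of 14 in the BCL2 family, and neither passed without the block. This count and those that follow stand beside 3.37% of all genes lower and 1.50% higher. A single called gene is not read as a result about its list. OAS2 (0.23) was the single called member of 25 interferon-stimulated genes, STING1 and MYD88 (0.20) were 2 of 13 nucleic acid sensors, TPI1 (0.23) was 1 of 20 glycolysis and hypoxia genes, and CDK6 (-0.13) was 1 of 35 cell cycle genes. None of these 5 genes was called without the block. Among 21 p53 targets and 17 RNase H, exonuclease and paraspeckle genes none was called. MDM2 had -0.13 and CCNG1 -0.05 in the former list, and HNRNPK 0.04 in the latter.

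The cells carried the markers of B precursors. Of 10 such markers 9 were at 1 CPM or more in all groups, and VPREB1 was at 0 in the counts. Their summed level was 5240 to 5373 CPM with GapmeR1 and 5076 to 5698 CPM in the controls. Of 8 myeloid markers, MPO (0.21) and CSF1R were called higher, with sums of 104 to 159 CPM against 89.8 to 139 CPM and with ELANE and FCGR3A at 0 in both groups. Of 8 T-cell markers CD3D, CD3G and CD2 were at 0 in both groups, and TRAC had 0.17. All 7 erythroid markers summed to under 1 CPM, and 2 of 8 stromal and epithelial markers reached 1 CPM, COL1A1 (0.05) and PECAM1 (-0.13). Total counts were 14627110 to 18973925 with GapmeR1, 16028895 to 18846647 in the controls and 17065204 to 18301713 with GapmeR2. Mitochondrial genes took 4.43% to 4.70% and 4.01% to 4.70% of counts with GapmeR1 and in the controls.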

How the data were processed

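RNA sequencing was performed on REH cells, and 10 of 27 samples carry this comparison, with the other 17 as a further reference. The authors aligned reads to hg38 with STAR, as the processing notes state. The deposited values are raw counts per gene with no normalisation, from STAR's own counting of uniquely mapped reads. The version of the gene annotation is not given in the sources used here. The labels describe ribodepleted stranded total RNA and the methods poly-A selection. The former can hold more unspliced RNA than the latter. The fourth column, the strand with most counts, was used. Symbols, lengths and coordinates came from GENCODE v44, which matched 56434 of 60619 identifiers.

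Quasi-likelihood F tests of edgeR (4.0.16) were run on the counts in R (4.3.3), after TMM normalisation and filterByExpr (minimum count 10, minimum total count 15), with the replicate number as a block. The study did its replicates on different days. Deviations of samples from their group's mean had an average correlation of 0.289 over 12 pairs of samples with the same number and -0.138 over 25 with different numbers. Deviations within a group cancel out, so the second average is tied to the first and adds no separate support. A Benjamini-Hochberg adjusted p-value under 0.05 was called changed. Standard errors came from the F statistics. CPM used TMM library sizes over all 27 samples and log2 CPM a prior count of 2. Replicates of a group differed by more than sampling noise.

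The GapmeR sequences were taken from the supplementary tables of the study and searched in hg38 and in GENCODE transcripts with up to 2 mismatches or an unbroken run of 13 or more. Gene lists held genes of B-cell, stress, immune, metabolic and structural processes and markers of other cell types. Genes were named by a rule: the target and its neighbours within 1 Mb, the 12 lowest and 12 highest called genes with a mean of at least 1 CPM and every GapmeR1 sample beyond the controls of its replicate number, the 5 smallest adjusted p-values in each direction, up to 4 called genes a list and direction or else its 2 highest by CPM, the 5 smallest adjusted p-values between the GapmeRs, and 10 lower genes with the best match. A few genes of these lists are not reported here by name, and the counts of the lists include them. The members and lists were chosen with earlier results of these data known. Alternatives were no block, DESeq2 (1.42.0), RLE normalisation, other low-count filters, unstranded counts, other sets of controls and samples, and each sample left out in turn. The fits were tested on simulated data, where those with the block against medium and NTC and between the GapmeRs called a larger share of false genes than the threshold allows, and those without it a smaller one.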

Additional observations from a re-analysis of the deposited data

Results flagged for a closer look

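A control sample stood apart from the other 4 by Dixon's test for 6 genes named above. Chance flags about 1 in 20 groups, and 85 genes were looked at for a high or a low control. For ENSG00000261770 NTC replicate 2 was the highest at 5.91 CPM against 3.90 to 4.25 CPM in the others. For LARGE2 NTC replicate 3 was at 4.66 CPM against 2.60 to 2.85 CPM, for NRXN2 it was at 45.9 CPM against 34.2 to 36.4 CPM, and for MPO it was at 132 CPM against 84.8 to 95.9 CPM. The same sample was the lowest for TPI1, at 124 CPM against 155 to 157 CPM. For OAS2 medium replicate 1 was the lowest at 48.0 CPM against 51.4 to 52.1 CPM. In 4 of these 6 cases the sample was NTC replicate 3, the only control with that replicate number, against which GapmeR1 replicate 3 is set in the fit with the block. Over all genes the deviations of these samples from their group means had a correlation of 0.558. Dixon's test ignores the replicate number, so it cannot tell a control that stands apart from a shift shared within replicate 3.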

How the results depend on the processing

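The level of lnc-ASTN1-1 kept its direction and its call under all alternatives, with log2 fold changes from -1.34 to -1.06. The count of 731 genes changed with GapmeR1 fell to 108 with no replicate block, 393 with medium only as controls, 135 with NTC plus the other lncRNAs' GapmeRs as reference and 341 without replicate 3, and ranged from 352 to 887 with a sample left out. The fits with medium only, without replicate 3, and without GapmeR1 or NTC replicate 3 compare no samples of that number. They are thus not separate checks. The count was within 1.5 times of 731 under the other alternatives. The 33 genes of GapmeR2 became 2 with no replicate block, 15 with DESeq2, 64 with no low-count filter, 20 in one fit of all 27 samples and 67 with NTC only, and ranged from 6 to 58 with a sample left out. Medium only as controls left no residual degrees of freedom there and gave no value. The 262 genes between the GapmeRs became 53 with no replicate block and 638 with GapmeR samples of replicates 1 and 3 only, and ranged from 113 to 417 with a sample left out. The 113 genes against other GapmeRs were 66 to 68 with a GapmeR1 sample left out. The cause of these shifts was not tested, beyond fewer samples in the fits that leave some out. The smaller counts without the block came with the same samples.

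The rule named 72 called genes besides lnc-ASTN1-1. Called genes named outside the rule, SMYD3 and IDI1 among them, are not in the counts and sign changes that follow. Of the 72 genes, 24 kept their call with no replicate block and 59 with DESeq2. With RLE 70 did, and 19 with NTC and the other GapmeRs as reference. With that last reference the log2 fold change changed sign for TBC1D10C (-0.41), P2RY14 (-0.022), PSD4 (-0.22), VPREB3 (0.029), DMD (0.18) and MPO (-0.28), and for the uncalled RALGPS2 (0.16), C1orf220 (0.021), CCNG1 (0.024), TRAC (-0.097), COL1A1 (-0.038) and PECAM1 (0.11). Other changes of sign concerned uncalled genes. They were RASAL2 with unstranded counts (-0.039), RAG1 (-0.014) and HNRNPK (-0.0018) with medium only, COL1A1 (-0.035) with NTC only, and COL1A1 without replicate 3 (-0.017). With a sample left out C1orf220 ranged from -0.24 to 0.054, CCNG1 from -0.11 to 0.0030 and COL1A1 from -0.019 to 0.11. Depth limits genes near 1 CPM, such as CSF1R and SLC38A4-AS1.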
